A study of Mus musculus with 686 samples.

Results

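The hearts described here came from mice whose spaceflight ended on orbit. They were chosen by their labels alone, as every heart library of the immediate termination protocol (TERM) in 3 arms: flight (FL), ground controls kept in the flight habitat (HGC) and ground controls of the vivarium (VGC). These are 28 of the 686 small RNA libraries of the series, with 9 from FL, 9 from HGC and 10 from VGC mice, and 7 classes of RNA were counted in each. All mice were female BALB/cAnNTac, aged 3 or 8 months. FL held 4 mice of 3 months and 5 of 8 months, HGC held 5 and 4, and VGC held 5 and 5. FL mice lived on the International Space Station. HGC mice lived on the ground in the same hardware at double density, with temperature, humidity and carbon dioxide matched to the flight records, and VGC mice lived in ordinary cages. Termination took place 22 to 24 days after launch, on the station for FL and on Earth for HGC and VGC, under ketamine, xylazine and acepromazine followed by exsanguination. Each carcass was wrapped in foil and frozen whole, and the heart was dissected after a later thaw. Carcasses on the station froze slowly because they floated free in the freezer, whereas those on the ground went into an ordinary deep freezer, so flight and freezing on orbit cannot be told apart. Mold on the food bars was recorded for FL and HGC. Every comparison below with HGC or VGC used the same FL libraries.

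MicroRNAs (miRNAs) are short RNAs that lower the output of the mRNAs they pair with, mainly through the seed, bases 2 to 8. Heart muscle is marked by miRNAs that lie inside genes for myosin heavy chains. miR-208a lies in Myh6, the main myosin of the adult mouse heart, miR-208b in Myh7, the myosin of the fetal and stressed heart, and miR-499 in Myh7b. miR-1a and miR-133a are shared by heart and skeletal muscle, whereas miR-206 is a skeletal muscle miRNA. miR-21a, the miR-29 family and miR-132 are known from work on cardiac stress and fibrosis.

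The mature sequences below are heart markers, miRNAs that mark the libraries that stand apart, and miRNAs that recur in the comparisons. They are from RefSeq on the GRCm38.p6 build, an earlier build than that of the deposited counts, where 11 of 16 names looked up were matched. miR-375-3p, miR-124-3p, miR-129-1-3p, miR-1a-3p and miR-133a-3p are named only. Capitals mark the seed.
mmu-miR-208a-3p: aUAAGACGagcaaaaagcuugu
mmu-miR-208b-3p: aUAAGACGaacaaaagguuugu
mmu-miR-499-5p: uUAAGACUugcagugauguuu
mmu-miR-9-5p: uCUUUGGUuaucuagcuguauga
mmu-miR-192-5p: cUGACCUAugaauugacagcc
mmu-miR-206-3p: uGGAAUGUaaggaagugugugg
mmu-miR-142a-3p: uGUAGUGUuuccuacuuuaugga
mmu-miR-217-5p: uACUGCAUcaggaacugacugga
mmu-miR-216b-5p: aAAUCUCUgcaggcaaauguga
mmu-miR-193a-5p: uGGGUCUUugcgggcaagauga
mmu-miR-16-2-3p: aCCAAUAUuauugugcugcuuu

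miR-208a-3p lies at chr14:54949072-54949093 on the minus strand, in an intron of Myh6. miR-208b-3p lies at chr14:54975710-54975731 on the same strand, in an intron of Myh7. miR-499-5p lies at chr2:155622893-155622913 on the plus strand, in an intron of Myh7b. The miR-208a-3p and miR-208b-3p sequences have the same seed and share 19 of 22 bases, with the substitutions G10A, A16G and C18U counted from the 5′ end of miR-208a-3p. miR-499-5p shares bases 2 to 7 with miR-208a-3p, 6 of 6, and differs at base 8. miR-9-5p has 3 copies, on chromosomes 3, 7 and 13, and the chromosome 13 copy lies in an exon of the lncRNA C130071C03Rik. miR-216b-5p and miR-217-5p lie close together on chromosome 11 (chr11:28746204-28746225 and chr11:28763761-28763783, plus strand). miR-16-2-3p lies in an intron of Smc4 (chr3:69009960-69009981, plus strand).

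The heart label was first set against the marker miRNAs. Values are reads per 1000000 counts over all 7 RNA classes (rpmm). In FL 1, 2, 4, 5, 11, 12, 13, 14 and 16, miR-208a-3p measured 11.8, 119, 35.1, 78.7, 292, 152, 69.8, 0.232 and 98.6 rpmm, where the number after the arm is the label's mouse number. In HGC 1, 2, 3, 4, 5, 11, 12, 14 and 16 it measured 105, 81.0, 168, 438, 251, 134, 0.0859, 83.4 and 46.1 rpmm. In VGC 1, 2, 3, 4, 5, 11, 12, 13, 14 and 16 it measured 135, 116, 96.0, 162, 94.7, 78.3, 0.0351, 147, 109 and 108 rpmm. FL 14, HGC 12 and VGC 12 were far below every other library, FL 1 and FL 4 were also low, and the other 23 libraries overlapped across the arms. miR-499-5p measured 12.1, 193, 37.5, 97.5, 246, 223, 94.3, 0.105 and 124 rpmm in the FL libraries in the same order. In HGC it measured 270, 145, 457, 347, 442, 167, 1.14, 120 and 44.0 rpmm, and in VGC 279, 227, 173, 391, 137, 157, 1.60, 170, 120 and 218 rpmm. The same 5 libraries held the lowest values, and HGC 16 came next.

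**Figure D1:**
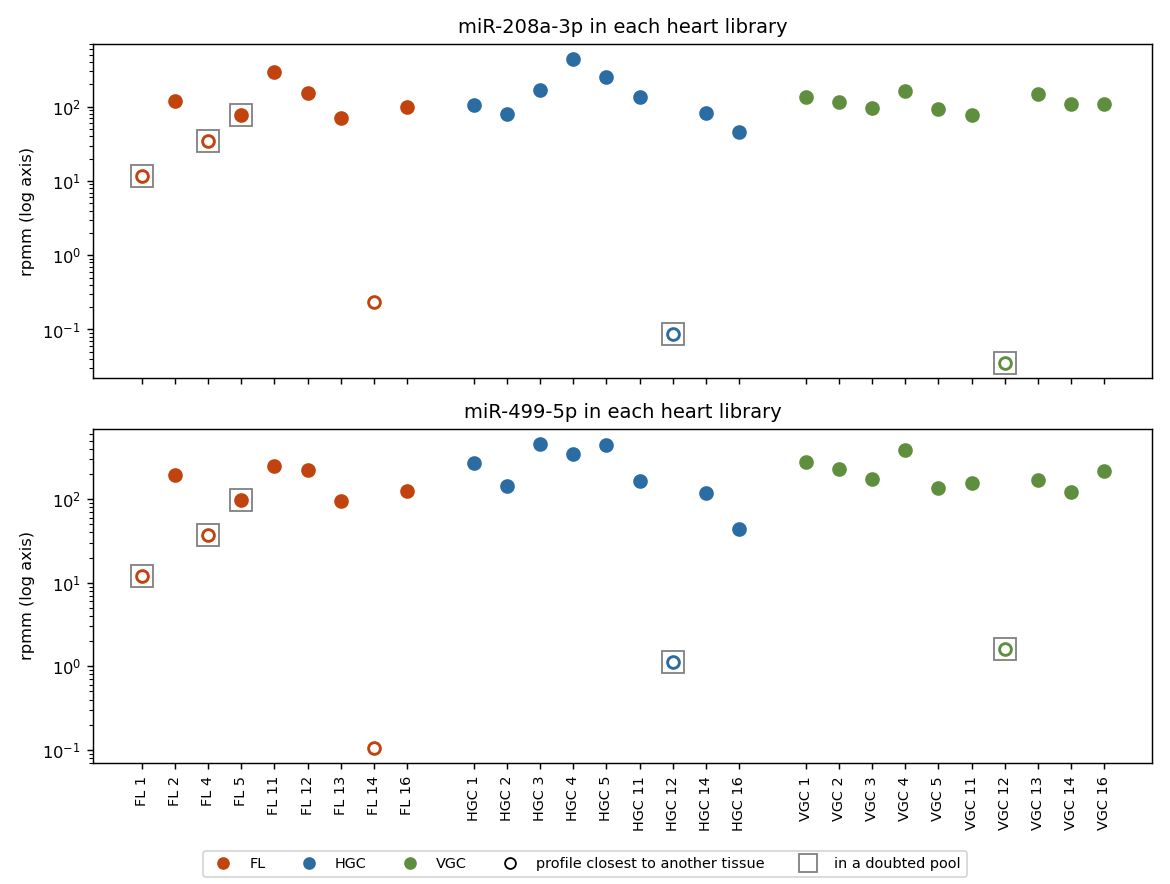
Level of miR-208a-3p (top) and miR-499-5p (bottom) in each of the 28 heart libraries, in rpmm on a log axis; color marks the arm, open circles the libraries whose miRNA profile was closest to another tissue, and squares the libraries in doubted pools. FL 14, HGC 12 and VGC 12 lie at or below 1.60 rpmm in both panels, and FL 1 and FL 4 lie between 11.8 and 37.5 rpmm.

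Over 730 miRNAs, each library's profile was correlated (Pearson's r across miRNAs) with a tissue profile, the median over all libraries of that tissue, for the 13 tissues of the series, both taken as deviations from the middle tissue. The points share a library and its depth, so r is a description only. FL 14 was closest to kidney (r = 0.944 against -0.224 for heart), HGC 12 to spleen (0.952 against -0.059) and VGC 12 to spleen (0.922 against -0.05). FL 1 was closest to brain (0.389 against 0.291) and FL 4 to thymus (0.473 against 0.437), with no tissue near 1 for either. The other 23 libraries were closest to heart, at r from 0.594 in HGC 16 to 0.968 in VGC 2. Of the 44 sequencing pools, 11 were treated here as doubted for mixed tissues, which the paper's text does not report. They hold FL 1, FL 4, FL 5, HGC 12 and VGC 12 but not FL 14. The counts of calls are therefore given for all 28 libraries and for the 23 with a heart profile, and values of single heart miRNAs for the 23, a set chosen after the values were seen, with 6 FL, 8 HGC and 9 VGC libraries. Leaving out the doubted pools instead also left 23 libraries, with FL 14 among them. In the 23 with a heart profile, FL held 2 mice of 3 months and 4 of 8 months, HGC 5 and 3, and VGC 5 and 4. Without the doubted pools FL held 1 and 5, HGC 5 and 3, and VGC 5 and 4. The arms of both sets were thus unbalanced in age, and the fits had no age term unless one is named.

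Marker lists of other tissues were high in the 5 libraries, and what tissue each held was not settled by them. The summed level of 12 cardiomyocyte miRNAs was 35.3 rpmm in FL 14, 49.8 in HGC 12 and 45.9 in VGC 12, against 18049 to 66235 rpmm in the 23 others. In FL 1 and FL 4 it was 5768 and 13000 rpmm. FL 14 held 3361 rpmm of miR-192-5p, a miRNA of kidney and gut, against 21.4 to 188 rpmm in all other libraries, and 1049 rpmm of the epithelial miR-200b-3p. HGC 12 and VGC 12 held 1076 and 1245 rpmm of miR-142a-3p, a miRNA of white blood cells, against at most 208 rpmm elsewhere. FL 1 and FL 4 held 390 and 104 rpmm of the neural miR-9-5p, 389 and 196 of the neuronal miR-124-3p, and 247 and 212 of the skeletal muscle miR-206-3p. FL 1 also held 557 rpmm of miR-375-3p, a miRNA of pancreatic islets and of other endocrine and epithelial cells. Among the 23 libraries some foreign markers remained: miR-206-3p was 56.6 rpmm in FL 5 and 94.0 in HGC 16, the 4 pancreas miRNAs summed to 128 rpmm in FL 5, 61.7 in FL 12 and 53.7 in VGC 14, and the liver miRNA miR-122-5p reached 620 rpmm in HGC 16. In tissue of this kind, fewer cells of a type and less RNA per cell cannot be told apart.

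**Figure D2:**
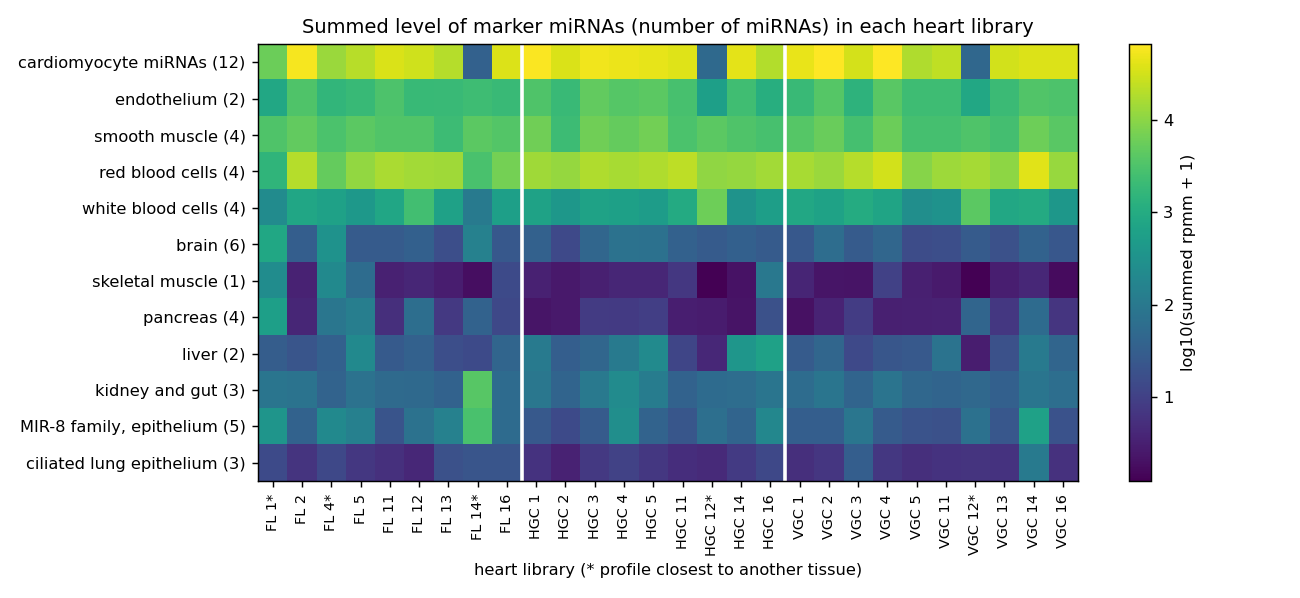
Summed level of the marker miRNA lists (rows) in each of the 28 heart libraries (columns), as log10 of rpmm plus 1, from purple for low to yellow for high. In the cardiomyocyte row FL 14, HGC 12 and VGC 12 are dark blue, at 35.3 to 49.8 rpmm, and FL 14 is green for kidney and gut, with 3936 rpmm.

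Total counts over the 7 classes, in units of 1000000, ran from 23.0 to 119 per library, with medians of 53.8 in FL, 46.6 in HGC and 53.3 in VGC, and 3.30 to 14.2 of them were on miRNAs. Features with several genomic copies, such as tRNA-Glu-CTC, carry the same count at each copy, so these totals are counts on features and not reads. No pair of libraries of an arm agreed within sampling noise.

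Heart muscle miRNAs came first. In the 28 libraries no cardiomyocyte miRNA passed the test in either comparison, where 0.508% of all miRNAs passed for FL vs. HGC and 2.34% for FL vs. VGC. At such shares, and with 0 of 916 miRNAs called in the 23 libraries treated below, a count of 0 in a short list says nothing particular about it. miR-208b-5p was too low to be tested, which left 11 of 12. Their median log2 fold change was -0.48 for FL vs. HGC and -0.28 for FL vs. VGC, beside 0.01 and 0.03 over all miRNAs tested. Over the 23 libraries with a heart profile it was -0.24 with 10 of 11 below 0, and -0.13 with 8 of 11 below 0, beside -0.01 in both cases over all miRNAs, and again none passed. Without the 11 doubted pools, with FL 14 still in, it was -0.49 with 10 of 11 below 0 and -0.43 with 11 of 11 below 0, beside -0.04 and -0.05. The 5 libraries left out held the lowest cardiomyocyte sums of all, 3 of them in FL.

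The 5 libraries left out also held the 5 lowest levels of miR-208a-3p, the marker of Myh6, so the values of the 23 rest on a choice that bears on this miRNA. Among the 23, miR-208a-3p had a lowest, median and highest level of 69.8, 109 and 292 rpmm in FL, 46.1, 119 and 438 in HGC, and 78.3, 109 and 162 in VGC, so the arms overlapped almost wholly. The log2 fold change was -0.19 (95% interval -0.81 to 0.42) for FL vs. HGC and 0.13 (-0.47 to 0.72) for FL vs. VGC, and in the 28 it was -0.48 (-2.14 to 1.18) and -0.16 (-1.77 to 1.46). miR-499-5p, from Myh7b, had a lowest, median and highest level of 94.3, 158 and 246 rpmm in FL, 44.0, 218 and 457 in HGC, and 120, 172 and 391 in VGC. Its log2 fold change was -0.54 (-1.16 to 0.07, adjusted p = 0.747, edgeR) for FL vs. HGC and -0.42 (-1.01 to 0.18, adjusted p = 0.993) for FL vs. VGC. The FL range lay within the HGC range. With all 28 libraries the values were -0.84 (-2.35 to 0.67) and -0.72 (-2.20 to 0.75). miR-208b-3p, which accompanies the fetal myosin Myh7, measured 4.82, 9.04 and 27.4 rpmm at its lowest, median and highest in FL. In HGC it measured 4.14, 8.07 and 12.6, and in VGC 8.45, 9.20 and 11.4 rpmm. Only FL 11, at 27.4 rpmm, stood above the ground values, and the log2 fold changes were 0.34 (-0.25 to 0.93) and 0.12 (-0.46 to 0.70).

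The miRNAs that heart shares with skeletal muscle were the most abundant of the list. miR-133a-3p had a median of 24951 rpmm in FL, 32843 in HGC and 28320 in VGC, and miR-1a-3p one of 5009, 5210 and 4708 rpmm. FL values of miR-133a-3p ran from 14362 to 46468 rpmm, inside the span of VGC, from 11743 to 54071. miR-133a-3p had a log2 fold change of -0.45 (-0.98 to 0.08) for FL vs. HGC and -0.25 (-0.77 to 0.27) for FL vs. VGC. For miR-1a-3p the values were -0.39 (-0.88 to 0.09) and -0.21 (-0.69 to 0.26). The lowest value against HGC was that of miR-1a-2-5p, at -0.58 (-1.17 to 0.01) and -0.38 (-0.96 to 0.21). No interval of the 11 miRNAs excluded 0.

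miRNAs of cardiac stress and fibrosis did not pass either. All 22 listed were tested, with 0 called in both comparisons of the 28 libraries, where 0.508 and 2.34% of all miRNAs were, and of the 23, where no miRNA was. In the 23 their median log2 fold change was 0.01 for FL vs. HGC, with 12 above 0 and 10 below, and -0.04 for FL vs. VGC, with 8 above and 14 below. miR-21a-5p, which rises in injured and fibrotic hearts, measured 62.6, 90.1 and 253 rpmm at its lowest, median and highest in FL, 38.6, 76.2 and 193 in HGC and 67.7, 94.1 and 162 in VGC. Its log2 fold change was 0.40 (-0.10 to 0.90) and 0.19 (-0.30 to 0.68), and the value of 253 rpmm was that of FL 12, which also had the highest sum of white blood cell miRNAs of the 23. miR-29a-3p, whose family targets collagen mRNAs, gave 0.16 (-0.28 to 0.60) and -0.06 (-0.49 to 0.37). miR-210-3p, induced by low oxygen, gave 0.16 (-0.17 to 0.50) and -0.10 (-0.43 to 0.22). miR-378a-3p, encoded in Ppargc1b and abundant in heart, gave 0.05 (-0.39 to 0.49) and 0.04 (-0.39 to 0.47). One member had an unadjusted p under 0.05, miR-25-3p against HGC, at 0.54 (0.05 to 1.04, adjusted p = 0.596), and against VGC it stood at -0.02. miR-132-3p had the widest interval, -1.32 (-3.86 to 1.22) against HGC. It was set by a few libraries in each arm, with 7.40 rpmm in FL 13, 19.5 in HGC 1 and 26.0 in VGC 4.

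**Figure D3:**
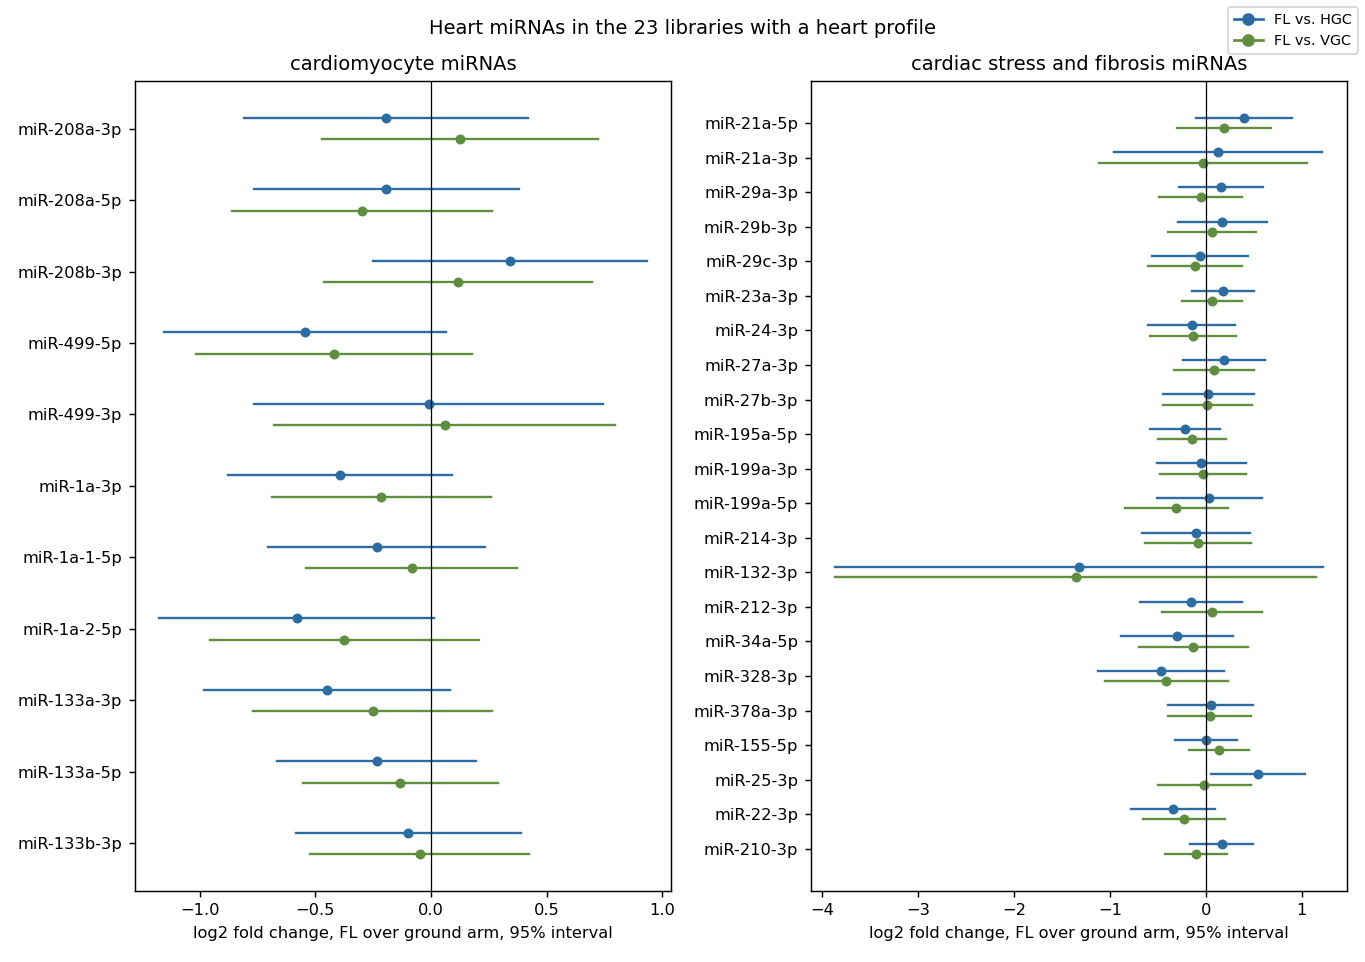
Log2 fold change with its 95% interval for the cardiomyocyte miRNAs (left) and the cardiac stress and fibrosis miRNAs (right) in the 23 libraries with a heart profile, for FL over HGC (blue) and FL over VGC (green). Every interval but 1, that of miR-25-3p in FL vs. HGC (0.05 to 1.04), includes 0.

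Among other families in the 23 libraries, the 5 miR-30 miRNAs, abundant in heart, had a median of -0.45 for FL vs. HGC and -0.15 for FL vs. VGC, all 5 below 0 in both. miR-30e-5p, the lowest, gave -0.61 (-1.10 to -0.13, adjusted p = 0.589) against HGC and -0.25 against VGC, and none of the 5 passed. The let-7 family (9 miRNAs) gave -0.14 and 0.01, and the MIR-17 family and cluster (11 miRNAs, known for promoting cell growth) gave 0.11 and 0.17. In the 28 libraries the let-7 medians were 0.04 and 0.21 and those of MIR-17 0.02 and -0.20, so that let-7 against HGC and MIR-17 against VGC had the other sign. The endothelial miR-126a pair gave -0.35 and -0.23. The 4 smooth muscle miRNAs of the miR-143 and miR-145 locus gave -0.20 and -0.11, with miR-145a-3p at -0.56 (-0.98 to -0.14, adjusted p = 0.589) against HGC. The 4 red blood cell miRNAs gave -0.01 and 0.01, against -0.41 and -0.54 in the 28 libraries. The miR-30, endothelial and smooth muscle medians in the 28 were -0.39 and -0.03, -0.36 and -0.25, and -0.18 and -0.23.

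White blood cell miRNAs changed sign with the libraries used. In the 28 libraries their 4 miRNAs had a median of -0.90 for FL vs. HGC and -0.94 for FL vs. VGC, with the spleen-like HGC 12 and VGC 12 (sums of 6024 and 4307 rpmm) on the ground side. In the 23 libraries the medians were 0.63 and 0.59, with all 4 above 0 in both, and none passed. miR-223-3p, a miRNA of neutrophils and monocytes, measured 32.3, 46.7 and 145 rpmm at its lowest, median and highest in FL, 14.1, 34.5 and 48.1 in HGC and 26.1, 38.4 and 76.4 in VGC. Its log2 fold change was 0.84 (0.26 to 1.41, adjusted p = 0.589) and 0.55 against HGC and VGC. The arms overlapped, and FL 12 alone exceeded all ground libraries of the 23.

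In the comparison of FL with HGC over the 28 libraries, 5 of 984 miRNAs passed an edgeR adjusted p of 0.05, all higher in FL (0.508%). They were miR-375-3p (log2 fold change 4.95, SE 1.07, adjusted p = 0.0486), miR-1224-5p (3.99), miR-3475-3p (3.80), miR-9-5p (2.77, SE 0.65, adjusted p = 0.0496) and miR-193a-5p (1.79, SE 0.42, adjusted p = 0.0496). In the comparison of FL with VGC, 23 miRNAs passed (2.34%), 22 higher (2.24%) and 1 lower (0.102%) in FL. Called in both were miR-375-3p, miR-9-5p and miR-193a-5p. Among those called against VGC were miR-206-3p (5.24), miR-124-3p (4.01), miR-192-5p (3.14), miR-194-5p (2.62, a partner of miR-192) and miR-9-3p (2.51). These were picked from the 23 as miRNAs of skeletal muscle, of neural tissue, or of kidney and gut. miR-6969-5p, miR-3099-3p, miR-615-5p and miR-615-3p were also called there and are not given here as markers of a tissue. The 1 lower miRNA was miR-16-2-3p (-1.08, adjusted p = 0.0425). HGC and VGC, compared with each other, gave 0 calls by edgeR, with 30 miRNAs at an unadjusted p under 0.05. With age or with plate as a term in the same 28 libraries edgeR called 0 in both FL comparisons, at an unadjusted p under 0.05 in 112 and 118 miRNAs with age and in 57 and 37 with plate, and DESeq2 called 17 and 24.

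None of these calls stood in the 23 libraries with a heart profile. There edgeR called 0 of 916 miRNAs for FL vs. HGC (63 at an unadjusted p under 0.05, smallest adjusted p = 0.567) and 0 for FL vs. VGC (29, smallest adjusted p = 0.170). DESeq2 called 0 in both as well, with 57 and 26 at an unadjusted p under 0.05. HGC vs. VGC also gave 0, with 59 at an unadjusted p under 0.05. No miRNA had all FL libraries above or below all HGC libraries, or all VGC libraries. Without the 11 doubted pools the counts were 0 and 0, with 92 and 75 at an unadjusted p under 0.05. FL 14 was still in there, and the fold changes of its markers stayed large, with 3.48 (1.88 to 5.09, adjusted p = 0.0615, edgeR) for miR-192-5p against VGC, medians of 2.42 and 3.03 for the kidney and gut list, and 2.81 and 3.88 for the epithelial MIR-8 family. These counts of 0 do not show that the arms were equal, since the intervals given here are wide. The smallest difference that could be detected with these mice was not tested. Just 1 miRNA passed in the 23 libraries when HGC 16 was also left out, miR-708-5p, named after its values were seen and higher in FL than in HGC at 1.74 (1.01 to 2.46, adjusted p = 0.0358, edgeR). It measured 3.11 to 15.6 rpmm in FL and 1.91 to 5.39 in HGC apart from HGC 16, which had 20.8 rpmm.

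miR-9-5p had its high values in 3 libraries. It measured 390, 21.0, 104, 15.1, 13.9, 15.2, 8.99, 86.4 and 15.3 rpmm in the 9 FL libraries in the order given for miR-208a-3p, 6.70 to 38.9 in HGC and 6.00 to 27.5 in VGC. FL 1, FL 4 and FL 14 were above every ground library, and the other 6 FL libraries were within the ground range. The log2 fold change went from 2.77 to -0.20 (-0.69 to 0.29) against HGC, and from 2.94 to -0.03 (-0.51 to 0.45) against VGC. miR-192-5p went from 3.14 to 0.02 against VGC, and miR-124-3p from 4.01 to -0.30. The 5 libraries were left out by their miRNA profiles, so falls of other tissues' markers follow from that choice and are no separate test. miR-206-3p went from 5.24 to 2.52 (0.60 to 4.44, adjusted p = 0.656, edgeR) against VGC, with 56.6 rpmm in FL 5 and 13.1 in FL 16 against at most 9.24 in VGC, and to 0.71 (-1.09 to 2.52) without the doubted pools, which leaves out FL 5. Against HGC it went from 2.37 to -0.23, and without the pools to -2.10 (-4.09 to -0.11, adjusted p = 0.472, edgeR). miR-193a-5p went from 1.79 to 0.68 (-0.01 to 1.37) against HGC and from 1.48 to 0.37 (-0.30 to 1.04) against VGC.

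miR-16-2-3p moved least. It measured 0.0922, 0.505, 0.448, 0.364, 0.573, 0.468, 0.390, 0.401 and 0.271 rpmm in the FL libraries, 0.384 to 1.74 in HGC and 0.416 to 1.64 in VGC. All FL values were low, but they overlapped with the lowest of both ground arms. Over the 23 libraries the log2 fold change was -0.98 (-1.53 to -0.42, adjusted p = 0.567) against HGC and -0.90 (-1.44 to -0.35, adjusted p = 0.252) against VGC. At no more than 1.74 rpmm it was a scarce miRNA, and the other strand of this hairpin, miR-16-5p, is shared with a further locus.

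**Figure D4:**
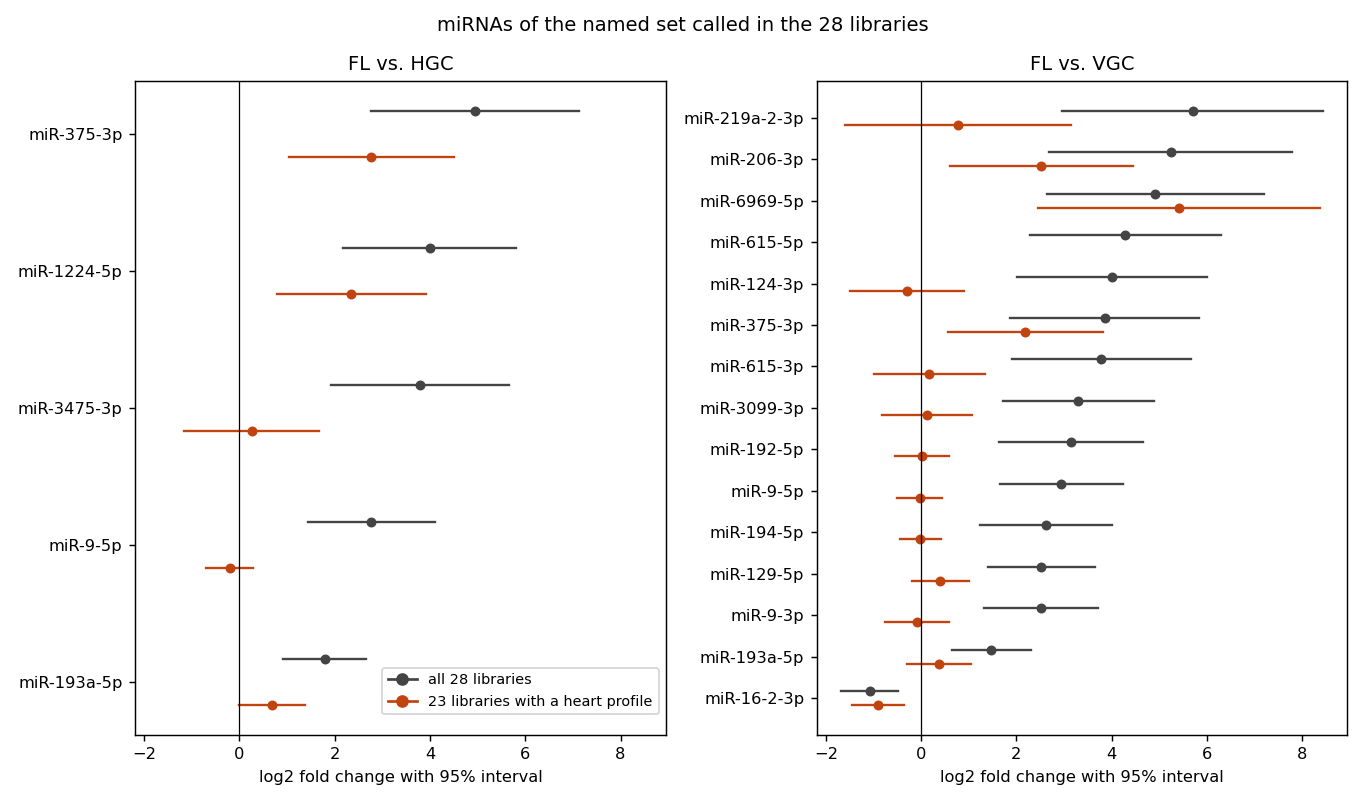
Log2 fold change with its 95% interval for named miRNAs called in the 28 libraries, with all 28 (grey) and with the 23 of a heart profile (orange), for FL vs. HGC (left) and FL vs. VGC (right). miR-9-5p goes from 2.77 to -0.20 and from 2.94 to -0.03, whereas miR-16-2-3p goes from -1.08 to -0.90. miR-615-5p was not tested in the 23. Libraries were left out by miRNA profile, so falls of other tissues' markers follow from that choice.

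The pancreas list held the 2 smallest p-values of the 23 libraries for FL vs. VGC, whereas miR-129-1-3p (-1.34, adjusted p = 0.567, edgeR) and miR-16-2-3p came first for FL vs. HGC. All 4 miRNAs of the pancreas list had an unadjusted p under 0.05 in both comparisons, with medians of 2.67 and 3.51, and none passed after adjustment. Without the 11 doubted pools, which hold FL 5, the medians were 1.19 and 2.05, with 1 and 2 of the 4 at an unadjusted p under 0.05. With rpmm in place of TMM scaling, miR-217-5p and miR-216b-5p were called higher than in VGC. miR-217-5p, of pancreatic acinar cells, measured 0.0562, 9.58, 0.199, 5.33, 0.112 and 0.0369 rpmm in FL 2, 5, 11, 12, 13 and 16, 0.0371 to 1.72 in HGC and 0 to 0.308 in VGC. FL 5 and FL 12 were above every ground library and the other 4 FL libraries were not. Its log2 fold change was 2.57 (0.54 to 4.59, adjusted p = 0.589) against HGC and 4.32 (2.18 to 6.47, adjusted p = 0.170) against VGC. miR-216b-5p, its neighbor on chromosome 11, measured 3.09 rpmm in FL 5 and 3.15 in FL 12 and at most 0.431 in every other of the 23, with 2.85 and 3.96 (adjusted p = 0.589 and 0.170). miR-375-3p measured 2.86, 110, 3.78, 49.4, 6.34 and 12.0 rpmm in FL 2, 5, 11, 12, 13 and 16, 0.974 to 14.4 in HGC and 0.957 to 53.6 in VGC, and gave 2.77 (1.04 to 4.50) and 2.19 (0.56 to 3.83). The high values were again in FL 5 and FL 12, and in VGC 14. Whether pancreatic tissue was carried with these hearts was not tested.

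The epithelial MIR-8 family, which holds miR-141, miR-200 and miR-429, had medians of 2.85 and 3.62 in the 28 libraries, with 5 of 5 at an unadjusted p under 0.05 in each comparison and none called. In the 23 the medians were -0.23 and 0.26 with none under 0.05. FL 14 alone had a sum of 2950 rpmm, followed by VGC 14 at 625. The 2 liver miRNAs lay below 0 for FL vs. HGC in both sets, with a median of -1.86 in the 28 and -1.72 in the 23 libraries, where both had an unadjusted p under 0.05. miR-122-5p measured 15.6, 29.2 and 213 rpmm at its lowest, median and highest in FL and 10.5, 101 and 620 in HGC, with an adjusted p of 0.589 by edgeR. With plate as a term in the same 23 libraries it was called lower in FL than in HGC. Against VGC its log2 fold change was 0.64 (-0.82 to 2.10). The brain list went from medians of 1.38 and 1.70, with 1 and 3 of 6 called, to -0.24 and -0.10, and the kidney and gut list from 2.07 and 2.62, with 0 and 2 of 3 called, to -0.58 and -0.01. Over all miRNAs, 0.508 and 2.34% were called in the 28 libraries and none in the 23. Since libraries were left out by miRNA profile, the falls of the MIR-8, brain, and kidney and gut lists follow from that choice. Without the doubted pools the brain medians were -0.14 and 0.25. The ciliated lung list gave 1.25 and -0.20 in the 28 and 1.00 and -0.61 in the 23, with VGC 14 at 111 rpmm and no other library above 30.8.

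By the rule used in the study, deregulation of a miRNA means a ratio of geometric medians above 1 in size on the log2 scale, together with a Cohen's d above 0.5 in size. In the 28 libraries 10 of 984 miRNAs met it for FL vs. HGC (1.02%), 9 higher and 1 lower, and 13 for FL vs. VGC (1.32%), 12 higher and 1 lower. These counts moved with the scaling, to 24 and 22 when counts were divided by the miRNA total and to 25 and 23 with TMM scaling. Of the 23 libraries' miRNAs, 4 met it for FL vs. HGC (0.437%): miR-375-3p (log2 ratio 1.28) and miR-708-5p (1.26) were higher, and miR-124-3p (-1.51) and miR-122-5p (-1.79) lower. For FL vs. VGC 1 met it (0.109%), miR-375-3p (1.49). The Wilcoxon rank-sum test with Benjamini-Hochberg adjustment called 0 in all of these, with 22 and 15 miRNAs at an unadjusted p under 0.05 in the 23 libraries, and edgeR gave the counts above.

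Age was taken up in a joint edgeR fit. At 3 months FL vs. HGC gave 49 calls in the 28 libraries (4.98%), 47 of them higher, and at 8 months 0, with 88 miRNAs at an unadjusted p under 0.05. The difference between the ages, tested as an interaction, gave 39 calls (3.96%). FL 1 and FL 4 were 2 of the 4 FL mice of 3 months. With the 23 libraries all 3 counts were 0, with 49, 91 and 77 miRNAs at an unadjusted p under 0.05, and only 2 FL mice of 3 months remained.

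The comparison was also set against the hearts of mice that returned alive from the same mission (LAR), 22 libraries with 6 FL, 6 HGC and 10 VGC. LAR mice of the FL arm flew longer, went through re-entry and were killed on Earth days after landing, and LAR tissues were taken fresh and frozen within minutes, not dissected from a thawed carcass. Time in flight, re-entry, place of death and handling of the tissue therefore cannot be told apart in this contrast. Among the LAR libraries, FL 13, HGC 8, VGC 9, VGC 13 and VGC 20 were closest to another tissue. In the joint fit without libraries closest to another tissue, 40 libraries in all, the FL vs. HGC difference of TERM hearts differed from that of LAR hearts for 15 of 963 miRNAs, 7 with a higher and 8 with a lower value in TERM (1.56%). Those named here were picked after their values were seen. They include 3 members of the MIR-17 family (miR-93-5p, miR-20a-5p, miR-17-5p) and miR-25-3p. miR-25-3p gave 0.53 (-0.16 to 1.23) in TERM and -1.92 (-2.77 to -1.07) in LAR, a difference of 2.45 (1.36 to 3.54, adjusted p = 0.0221, edgeR). For miR-17-5p the values were 0.32 (-0.23 to 0.86) and -1.47 (-2.12 to -0.82), for miR-20a-5p 0.15 and -1.74, and for miR-93-5p 0.43 and -1.62. In these 4 the LAR value passed the test and the TERM value did not. miR-30c-2-3p went the other way, with -0.63 (-1.06 to -0.20, adjusted p = 0.483, edgeR) in TERM and 0.88 (0.38 to 1.38, adjusted p = 0.0655) in LAR. miR-129-1-3p did so too, with -1.36 (adjusted p = 0.366) and 1.02 (adjusted p = 0.216). miR-375-3p gave 2.75 (adjusted p = 0.366) in TERM and -1.72 (adjusted p = 0.358) in LAR. For these miRNAs neither the TERM nor the LAR value passed by itself. The count depended on single libraries, with 0 to 38 calls when 1 was left out. In all 50 libraries 8 of 1084 miRNAs were called (0.738%). For FL vs. VGC the same test gave 90 calls in all libraries (8.30%) and 0 in the 40.

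snoRNAs, which guide the modification of other RNAs, gave the largest share of calls. FL vs. HGC gave 117 of 872 tested (13.4%) and FL vs. VGC 135 (15.5%), all higher in FL, and 116 were called in both. In the same 28 libraries DESeq2 called 0 and 0, with 103 and 154 at an unadjusted p under 0.05, and edgeR called 0 and 0 without FL 1, with 63 and 120, and 0 and 81 without FL 4. All 117, and 133 of the 135, lie inside Snhg14 in the GENCODE M21 annotation, the imprinted host gene on chromosome 7 whose many snoRNA copies are expressed in neurons. Of 1545 snoRNAs listed 208 lie in Snhg14, and 206 of these were tested. Their summed level was 10114 rpmm in FL 1, 7952 in FL 4 and 1243 in FL 14, against 195 to 815 rpmm in the other 25 libraries. FL 1 and FL 4 stood apart and FL 14 came next, as they did for miR-9-5p and miR-124-3p. Gm25098, one of the copies, measured 193, 153 and 19.8 rpmm in FL 1, FL 4 and FL 14 and 3.24 to 13.8 in all others. Its log2 fold change was 2.60 against HGC (adjusted p = 0.0171) and 2.72 against VGC (adjusted p = 0.00638, edgeR).

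Without the 5 libraries the fold changes lay on the other side of 0. Gm25098 gave -0.63 (-1.11 to -0.16, adjusted p = 0.0929) against HGC and -0.45 (-0.92 to 0.02) against VGC. The Snhg14 sums were 254 to 496 rpmm in FL with a median of 363, 270 to 815 in HGC with a median of 464, and 253 to 628 in VGC with a median of 493. The ranges overlapped, with FL in their lower part. edgeR called 0 of 833 snoRNAs in both comparisons, with 143 and 44 at an unadjusted p under 0.05, and DESeq2 called 0 and 0, with 158 and 20. When FL 13 was also left out, 98 of 832 were called against HGC (11.8%), all lower in FL and all in Snhg14, and 0 against VGC, with 103 at an unadjusted p under 0.05. Many Snhg14 copies share sequence, and those with identical counts are not separate measurements. Snord80 and Gm26224, among the most abundant snoRNAs, gave 0.22 and -0.11 against HGC in the 23 libraries.

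lncRNAs gave 0 calls of 3960 transcripts for FL vs. HGC, by edgeR and by DESeq2, with 213 and 171 at an unadjusted p under 0.05. FL vs. VGC gave 12 (0.303%), all higher in FL, and in the 23 libraries also 12 of 3742 (0.321%). C130071C03Rik, a host of miR-9, measured 410, 116 and 96.6 rpmm in FL 1, FL 4 and FL 14 and 8.33 to 50.8 in all others. Mir124a-1hg, the host of miR-124, measured 405, 212 and 50.7 in the same 3 libraries, with HGC 5 at 57.3 and all others below that. Both were called in the 28 libraries (2.23 and 2.39, adjusted p = 0.0392 each) and gave 0.06 and 0.26 in the 23. For the called genes given here, the highest level of the 23 libraries was that of FL 13. Gm40518 measured 17.5 rpmm in FL 13 and at most 1.42 in the other 22, Gm10134 27.1 against at most 3.54, and Platr10 9.37 against at most 0.561. Their log2 fold changes against VGC were 4.19, 3.31 and 4.94 (adjusted p = 0.0433, 0.0485 and 0.0433, edgeR). Gm43062 measured 13.1 rpmm in FL 13 and at most 1.06 in the other 22, 8430423G03Rik 6.08 against at most 0.295, and Gm30420 5.82 against at most 0.373. Without FL 13 edgeR called 0 lncRNAs, with 308 at an unadjusted p under 0.05.

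For tRNAs, rRNAs, snRNAs and piRNAs edgeR gave 0 calls in both comparisons, in the 28 and in the 23 libraries. Of 404 tRNA genes, 17 and 37 had an unadjusted p under 0.05 against HGC and VGC in the 28, most of them lower in FL. In the 23 libraries 26 and 72 did, almost all of them higher in FL. In the 23 the Trp, Tyr, Ala and Leu tRNAs held most of those against VGC, with medians of 0.67, 0.72, 0.60 and 0.46 beside 0.28 over all tRNAs, and with 8 of 8, 9 of 10, 21 of 34 and 14 of 26 higher at an unadjusted p under 0.05. Against HGC the same groups had 3 of 8, 8 of 10, 0 of 34 and 4 of 26, with medians of 0.42, 0.62, 0.27 and 0.31 beside 0.14 over all tRNAs. In the 28 libraries against VGC 1 Trp, 0 Tyr, 3 Ala and 0 Leu tRNAs were higher at that p and 1 Leu tRNA was lower, and against HGC none of the 4 groups had any. The 4 groups were named after their values were seen. Copies in a group can carry the same count, so these tallies are not of separate measurements. tRNA-Trp-CCA-1-1 gave 0.76 (0.21 to 1.31, adjusted p = 0.231) against VGC and 0.80 (adjusted p = 0.479) against HGC. Most tRNA counts were on other isotypes, and Glu tRNAs alone made up 47.3 ± 5.94% of tRNA counts in FL (SD, n = 6), 48.9 ± 6.18% in HGC (n = 8) and 47.6 ± 5.33% in VGC (n = 9). DESeq2 called 16 tRNA genes lower in FL than in VGC in the 28 libraries (3.96%), all copies of Val-TAC-1 or Asp-GTC-1, which are not separate measurements. Of 264 rRNA features 1 and 10 had an unadjusted p under 0.05, of 793 snRNAs 7 and 10, and of 738 piRNAs 57 and 82, and in the 23 libraries 3 and 47 of 261, 8 and 15 of 774, and 35 and 59 of 687. The 5S rRNA Rn5s gave -0.07 and -0.19 in the 23 libraries, and Rnu1a1, a U1 snRNA of the spliceosome, 0.13 and -0.19.

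The share of each RNA class was compared by exact permutation tests, 14 in all, two-sided. None passed in the 28 libraries. The smallest p was for lncRNA, at 12.7 ± 5.51% in FL (SD, n = 9) against 17.4 ± 5.44% in HGC (n = 9), with an exact p of 0.0885 (adjusted p = 0.632). FL 14, HGC 12 and VGC 12 stood apart here too, with snRNA shares of 29.2, 24.9 and 25.6%, against at most 12.9% in the other 25 libraries, and tRNA shares of 4.34, 5.92 and 7.07%. Over the 23 libraries rRNA made up 24.6 ± 5.57% in FL (n = 6), 18.9 ± 4.50% in HGC (n = 8) and 19.3 ± 5.86% in VGC (n = 9). The exact permutation p was 0.0599 against HGC and 0.107 against VGC, with an adjusted p of 0.352 for both. In the 28 libraries the rRNA share of FL was 3.98 percentage points above that of HGC (exact p = 0.122), and without the doubted pools 3.39 points above it (exact p = 0.249). Without the doubted pools the snoRNA share of FL was 5.83 points above HGC (exact p = 0.0340) and 5.67 above VGC (exact p = 0.0324), and the snRNA share 5.37 points above HGC (exact p = 0.0466), each with an adjusted p of 0.192. FL 14 was in these values, with 32.7% snoRNA and 29.2% snRNA. Over the 23 libraries the snoRNA differences were 2.10 and 1.93 points (exact p = 0.103 and 0.111). The miRNA share was 13.1 ± 3.04% in FL (n = 6), 14.6 ± 4.29% in HGC (n = 8) and 14.2 ± 4.57% in VGC (n = 9), within the spread of each arm.

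**Figure D5:**
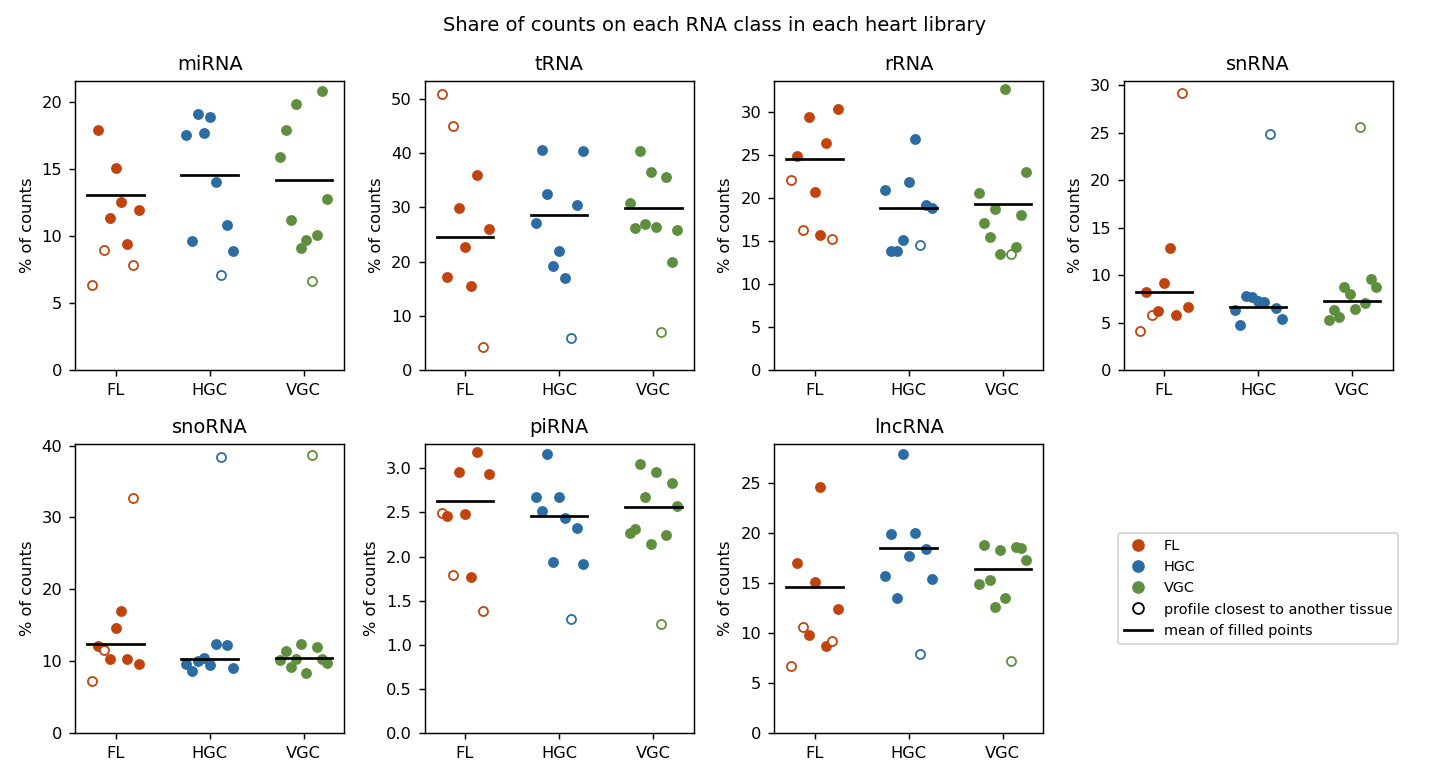
Percent of each library's counts on each of the 7 RNA classes, by arm, with 1 point per library; open points are the libraries closest to another tissue, and the line is the mean of the filled points. rRNA averages 24.6% in FL against 18.9 and 19.3% in HGC and VGC with overlapping points, and 3 open points lie above 24% in the snRNA panel.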

How the data were processed

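Small RNA of whole hearts was prepared with the MGIEasy kit, 16 samples to a pool, and sequenced on BGISEQ500. The authors assigned reads to 7 RNA classes with miRMaster against GRCm39 and deposited raw counts per feature and library, as counts for all classes but miRNAs. The miRNA values the authors deposited are treated as estimated counts. A fraction is present in 0.816% of them, and its origin is not given in the sources used here. They were rounded to whole numbers for the tests. 2 further deposited files were not used, and 0 columns of per-sample values lacked a sample. Groups came from the labels.

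Features with at least 5 counts in at least 10% of the libraries of any 1 arm were tested per class with edgeR's quasi-likelihood test (edgeR 4.0.16, R 4.3.3, TMM scaling) in 1 fit of the 3 arms, with a call at an adjusted p (Benjamini-Hochberg) under 0.05. The rpmm values divide counts by the library's total over the 7 classes, whereas the study scaled to mapped reads and asked its detection filter of every group, so counts under its rule need not be those of the study. For the study's rule, geometric medians were taken here on log2(rpmm + 1), a pseudocount chosen for this work, with the Wilcoxon rank-sum test from SciPy 1.17.1. Shares of classes were compared by exact permutation tests. Alternatives were DESeq2 1.42.0, other scalings and filters, age or plate (8 plates) as a term, the mouse number as a block, the doubted pools left out, and each library left out. The edgeR fit and the study's rule were first tested on simulated counts with known fold changes. Mouse numbers repeated between arms name different animals. Counts cover sampling of reads only, and PCR copies are not independent molecules.

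Named features are the members of the marker and family lists, up to 10 per comparison and class with the smallest adjusted p under 0.05 (where fewer than 3 passed, the 5 with the smallest p, given as not called), up to 20 called in both comparisons, the 10 with the largest Cohen's d under the study's rule, and the 10 most abundant miRNAs and 5 most abundant features of other classes. Members and lists were chosen with earlier results of these data known. Genomic positions and Snhg14 membership are from GRCm38 annotation, matched by name.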

Additional observations from a re-analysis of the deposited data

Results flagged for a closer look

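Within each arm, the highest and the lowest library were set against Dixon's 95% criterion for 41 measures, or 123 groups, and 38 values exceeded it. Chance alone marks about 5% of groups when measures are picked without sight of the values. Some of the 41 measures were miRNAs picked for a small p in the 28 libraries. The 38 values therefore cannot be set against that share. The ratio is the gap to the nearest library over the range of the arm.

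FL 14, HGC 12 and VGC 12 held most of them. For the snRNA share, highest in its arm, the ratio was 0.65 in FL 14, 0.848 in HGC 12 and 0.791 in VGC 12, and for the snoRNA share 0.62, 0.871 and 0.868. The cardiomyocyte sum was lowest in the same 3 libraries, with 0.688, 0.834 and 0.821. HGC 12 and VGC 12 were lowest for miR-208a-3p (0.628 and 0.858) and miR-499-5p (0.568 and 0.766), and highest for the white blood cell sum (0.624 and 0.528). VGC 12 also had the lowest piRNA share (0.503) and lncRNA share (0.468), and the highest miR-6969-5p (1.0) and miR-219a-2-3p (0.606). FL 14 was highest for the kidney and gut sum (0.822), miR-192-5p (0.759), miR-615-3p (0.914) and miR-615-5p (0.529).

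FL 1 had the lowest miR-30 sum (0.508) and the highest miR-1224-5p (0.691), miR-3475-3p (0.519) and miR-3099-3p (0.564). HGC 4, whose profile was closest to heart, was highest for miR-1224-5p (0.749), miR-9-3p (0.687), miR-219a-2-3p (0.686), miR-615-5p (0.651) and miR-615-3p (0.658). HGC 16 was highest for the skeletal muscle miRNA miR-206-3p (0.592), VGC 14 for the MIR-8 sum (0.548) and miR-193a-5p (0.524), FL 5 for the liver sum (0.589) and VGC 11 for the rRNA share (0.501).

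By a test of the difference itself in edgeR, FL vs. HGC differed between the ages for 39 miRNAs, and TERM differed from LAR hearts for 8 miRNAs in FL vs. HGC and for 90 in FL vs. VGC. Without the libraries closest to another tissue these counts were 0, 15 and 0.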

How the results depend on the processing

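Of 167 alternatives to the main results other than leaving out 1 library, 114 kept the direction and the side of the threshold or a count within 1.5 times, and those that did not are given here. The cause was not tested for any of them. The alternatives without the 5 libraries closest to another tissue, and the fits of the 23 libraries, were chosen after seeing the data.

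For miRNAs in FL vs. HGC, 5 calls became 17 with DESeq2, 1 without the doubted pools with age as a term, and 0 without the doubted pools, without the 5 libraries, without the doubted pools and FL 14, with rpmm scaling, with age as a term and with plate as a term. In FL vs. VGC 23 calls became 0 under the same settings other than DESeq2 and rpmm scaling, and 0 without the doubted pools with age as a term. In the 23 libraries, plate as a term gave 1 call in FL vs. HGC (miR-122-5p, lower) and rpmm scaling 2 in FL vs. VGC (miR-217-5p and miR-216b-5p, higher). For snoRNAs, 117 calls became 52 with at least 5 counts in 9 libraries and 0 with DESeq2, without the doubted pools, without the 5 libraries and without the doubted pools and FL 14. The 135 against VGC became 1 without the doubted pools and 0 with DESeq2, without the 5 libraries and without the doubted pools and FL 14. For lncRNAs against VGC, 12 became 23 without the doubted pools, 3 with DESeq2 and 0 with at least 5 counts in 9 libraries. tRNA calls against VGC went from 0 to 16 with DESeq2. At 3 months 49 calls became 0 without the doubted pools and without the 5 libraries, as did the 39 of the interaction with age, and at 8 months 0 became 1 without the doubted pools. TERM against LAR went from 8 to 15 for FL vs. HGC without the libraries closest to another tissue, and from 90 to 0 for FL vs. VGC there and without the doubted pools.

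Under the study's rule, 10 miRNAs became 6 without the doubted pools, 6 with a pseudocount of 10 rpmm, 24 with scaling to the miRNA total, 25 with TMM scaling and 4 without the 5 libraries. The 13 against VGC became 3, 5, 22, 23 and 1. The FL vs. HGC difference in tRNA share turned from 1.39 to -8.34 percentage points without the doubted pools and -4.09 without the 5 libraries, and that in piRNA share from 0.0602 to -0.0842 without the doubted pools. The piRNA share against VGC turned from -0.0442 to 0.0712 without the 5 libraries. Without the 5 libraries miR-9-5p turned to -0.20 against HGC, and against VGC miR-124-3p turned to -0.30, miR-194-5p to -0.013, miR-9-3p to -0.078 and miR-9-5p to -0.032. Without the doubted pools and FL 14, miR-9-5p was -0.19 against HGC, and against VGC miR-124-3p was -0.50, miR-192-5p -0.071, miR-194-5p -0.039, miR-9-3p -0.030 and miR-9-5p -0.017. miR-194-5p was -0.065 with DESeq2, and miR-206-3p -0.37 without the doubted pools with age as a term.

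With each library left out in turn, miRNA calls ran from 0 to 14 and 0 to 44 for FL vs. HGC and FL vs. VGC, snoRNA calls from 0 to 196 and 0 to 201, and lncRNA calls from 0 to 1 and 0 to 19. The snoRNA calls were 0 and 0 without FL 1. In the 23 libraries the miRNA calls ran from 0 to 1, the 1 without HGC 16, and 0 to 0. Leaving out FL 13 there gave 98 and 0 snoRNA calls and 0 and 0 lncRNA calls. Calls ran from 1 to 106 at 3 months, 0 to 0 at 8 months and 0 to 87 for the interaction. TERM against LAR gave 0 to 29 and 59 to 108 calls, and in the 40 libraries 0 to 38 and 0 to 2.

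Mouse numbers shared between arms did not pair the libraries. Over 26 pairs the correlation of deviations from the arm means had a median of 0.0860, with 13 above 0.1, and 4 of 28 libraries correlated best with their own number. With the number as a replicate block, miRNA calls were 0 and 0.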
